A study of Mus musculus with 18 samples.

Results

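The lymphocyte genes described here are 36 genes whose symbols were looked up in the deposited count table, where all 36 were found among 20105 genes. By role they divide into 10 B cell genes, 14 T cell genes, 9 natural killer (NK) and cytotoxic genes, and 3 regulators or surface proteins shared by lymphocytes and other blood cells. Nuclear RNA was counted in 18 libraries of 6 female mice of the HEP-INTACT line, whose hepatocyte nuclei carry a tag so that an immunoprecipitation (IP) can pull them out of a suspension of liver nuclei. The groups were frozen IP of fasted and of fed mice, fresh IP of fasted and of fed mice, and the supernatant of the fresh IP of fasted and of fed mice, with 3 libraries each, from 3 mice per feeding state. Fasted mice had no food for 16 h from zeitgeber time 12, the onset of the active phase, and control mice ate ad libitum and were killed at the same time. All mice carried the HEP-INTACT tag, so there was no untagged group, and the promoter that drives the tag and the age of the mice are not stated in the labels.

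Lymphocytes of the liver sit in the sinusoids and around the portal tracts, and the mouse organ is known for a large share of NK cells and innate-like T cells. B cells read antigen through a surface immunoglobulin whose signal passes through the CD79 chains, T cells through a receptor whose signal passes through the CD3 and zeta chains, and NK cells and cytotoxic T cells kill with perforin and granzymes. Lineage is held by transcription factors, among them Pax5 and Ebf1 in B cells, Tcf7, Lef1, Bcl11b and Gata3 in T cells, and Tbx21 and Eomes in NK cells. The tag is meant for hepatocytes, and the level of these genes in an IP library is called their residue here. Which cells it came from was not tested. Fasting is known to redistribute circulating lymphocytes between blood, bone marrow and other organs and to raise plasma glucocorticoid, which lymphocytes respond to.

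Libraries held 13828945 to 54434263 counts. Of the 36 genes, all passed the filter on low counts in supernatant. In fresh IP alone 13 passed and in frozen IP alone 19 passed, so in IP most of the list could not be tested for fasting. The 20 hepatocyte markers were all higher in fresh IP than in supernatant, with a median log2 difference of 4.80, and supernatant kept some hepatocyte RNA, with summed CPM (counts scaled to a common library size) of these markers of 1120 to 1860 in fasted and 685 to 1210 in fed supernatant. Bulk counts cannot tell fewer cells of a type from less RNA per cell.

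In supernatant the level per kilobase of gene, introns included, ranged widely among the 36 genes. Ptprc, which encodes the leukocyte surface phosphatase CD45, was highest at 8.22 CPM per kb, a level above that of 98.2% of all genes tested there. Ikzf1, which encodes the transcription factor Ikaros, followed at 6.09 CPM per kb, and Bank1, an adaptor of B cell receptor signalling, at 3.78 CPM per kb. The median level was 1.01 CPM per kb for B cell genes, 0.522 for T cell genes and 0.38 for NK and cytotoxic genes, against 0.849 CPM per kb over all 13921 genes tested. At the low end Eomes, a T-box factor of NK and memory T cells, had 0.0354 CPM per kb. Because genes are counted over their whole length, 3 genes dominated the summed CPM of the list: Bank1, Ikzf1 and Ptprc held 62.7% of it in fasted and 68.9% in fed supernatant.

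The first question was what fasting did to lymphocyte transcripts in the supernatant nuclei. Of the 10 B cell genes 1 fell, Bank1, of the 3 shared genes 1 fell, Ikzf1, and no T cell or NK and cytotoxic gene passed the test (edgeR; 0 of 14 and 1 of 9 at an unadjusted p under 0.05, and 0 and 1 in DESeq2). The median log2 fold change, fasted over fed, was -0.511 over the 10 B cell genes (-0.133 without fed library C), -0.135 over the 14 T cell genes, 0.0726 over the 9 NK and cytotoxic genes and -0.395 over the 3 shared genes, against 0.00497 over all genes tested. All 10 B cell genes had a negative fold change, as did 12 of 14 T cell genes and 4 of 9 NK and cytotoxic genes, and all 3 shared genes. Past an adjusted p of 0.05 (edgeR quasi-likelihood test, Benjamini-Hochberg over all genes) were 2 of the 36, Bank1 and Ikzf1, both lower, where 6.22% of all genes tested were called in either direction, 3.38% higher and 2.84% lower. That share of the list is near the background. At an unadjusted p under 0.05 there were 6 genes of the 36. The median over all 36 genes was -0.176, and it was -0.0425 without fed library C and -0.346 without fasted library A. That of the NK and cytotoxic genes ran from -0.137 to 0.14 on leaving out single libraries.

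**Figure D1:**
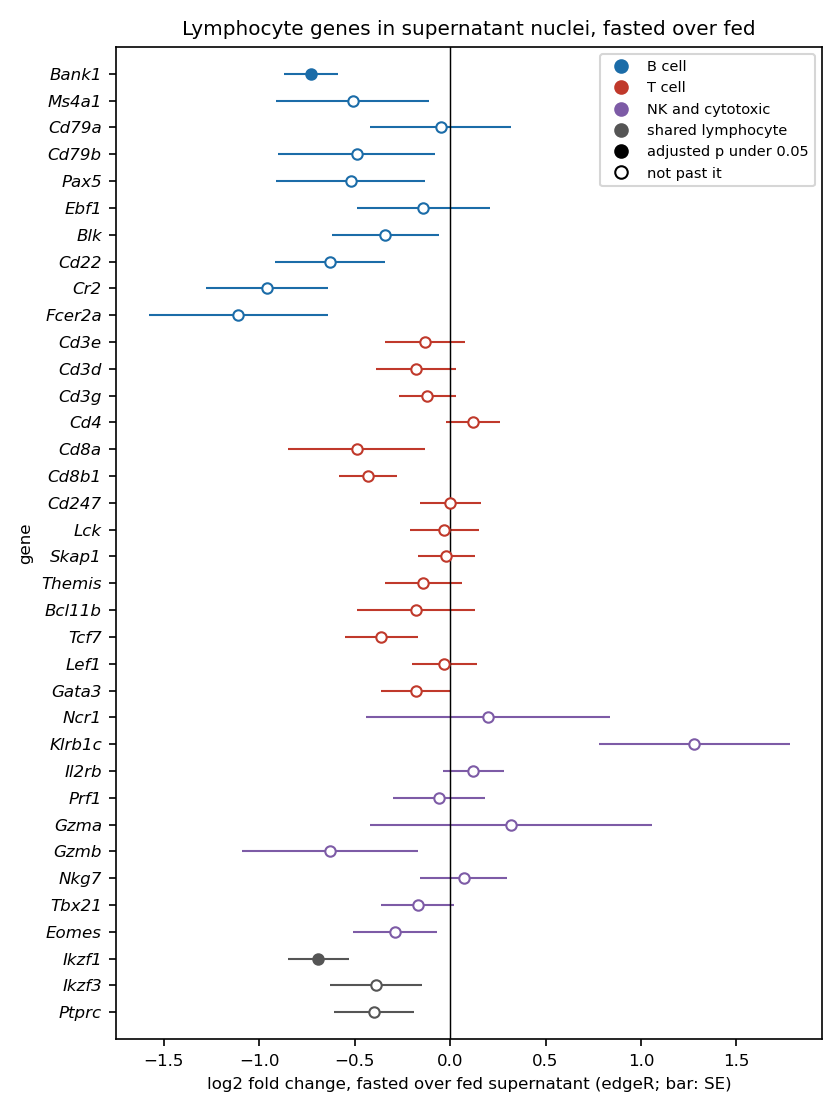
The log2 fold change of each of the 36 genes, fasted over fed supernatant, with its SE as a bar (n = 3 libraries each), one gene per line and coloured by role. Filled points passed an adjusted p of 0.05 in edgeR: Bank1 at -0.73 and Ikzf1 at -0.69. All 10 B cell points lie left of 0, from -1.11 for Fcer2a to -0.05 for Cd79a.

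Bank1 stood at 761, 861 and 691 CPM in fasted supernatant (libraries marked A, B and C in the count table), against 1116, 1418 and 1333 CPM in fed supernatant. Every fasted library was below every fed one, and the log2 fold change was -0.73 ± 0.14 (SE; adjusted p = 0.0225, edgeR). The gene lies at chr3:136053364-136326066 on the minus strand of mm10. GENCODE M21 places an antisense transcript over 41.7% of it. Leaving out single libraries ended the call in 4 of 6 cases, with -0.67 and an adjusted p of 0.064 without fed library B, -0.69 and 0.0728 without fed library C, -0.73 and 0.0939 without fasted library A, and -0.65 and 0.0585 without fasted library C.

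Ikzf1 stood at 433, 404 and 377 CPM in fasted supernatant, against 538, 773 and 656 CPM in fed supernatant. The groups did not overlap here either, with fed library B again the highest of the 6. Its log2 fold change was -0.69 ± 0.16 (SE; adjusted p = 0.0329, edgeR). The call was lost in 5 of 6 cases of leaving out a library, with adjusted p-values of 0.0705 without fed library B, 0.0914 without fed library C, 0.0939 without fasted library A, 0.0798 without fasted library B and 0.0877 without fasted library C, and log2 fold changes of -0.56 to -0.81 over the 6 cases. With all 6 groups in 1 fit neither gene passed, with adjusted p = 0.31 for Bank1 and 0.285 for Ikzf1.

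Of the RefSeq promoter windows of build GRCm38.p6 (250 bases before to 50 after the annotated start), 28 of the 36 genes matched by symbol. Shown are the windows of Bank1 and Ikzf1, the genes that passed the test in supernatant, and of Cd247 and Prf1, whose fasting change differed between fractions, each 5′ to 3′ on its gene's strand, with capitals marking GGAAGT, a core bound by ETS factors such as PU.1, on either strand.
Bank1 (chr3:136326017-136326316, minus strand): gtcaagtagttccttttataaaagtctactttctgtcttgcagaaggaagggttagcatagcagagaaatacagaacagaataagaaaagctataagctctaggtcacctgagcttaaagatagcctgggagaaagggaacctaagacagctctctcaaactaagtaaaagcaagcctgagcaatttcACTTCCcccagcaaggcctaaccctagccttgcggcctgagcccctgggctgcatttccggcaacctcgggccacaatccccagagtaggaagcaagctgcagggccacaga
Ikzf1 (chr11:11685675-11685974, plus strand): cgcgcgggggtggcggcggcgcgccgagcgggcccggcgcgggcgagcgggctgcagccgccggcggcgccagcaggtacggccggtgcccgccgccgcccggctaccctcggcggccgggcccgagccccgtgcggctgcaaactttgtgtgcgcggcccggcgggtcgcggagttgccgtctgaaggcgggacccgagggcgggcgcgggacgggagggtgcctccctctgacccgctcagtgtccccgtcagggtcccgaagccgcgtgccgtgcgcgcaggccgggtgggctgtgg
Cd247 (chr1:165788431-165788730, plus strand): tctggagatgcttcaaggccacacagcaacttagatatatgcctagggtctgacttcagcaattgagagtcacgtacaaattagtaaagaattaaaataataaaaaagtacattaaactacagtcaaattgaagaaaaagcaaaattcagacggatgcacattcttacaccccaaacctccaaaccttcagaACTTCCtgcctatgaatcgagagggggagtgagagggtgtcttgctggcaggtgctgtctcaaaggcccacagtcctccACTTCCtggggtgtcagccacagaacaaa
Prf1 (chr10:61297586-61297885, plus strand): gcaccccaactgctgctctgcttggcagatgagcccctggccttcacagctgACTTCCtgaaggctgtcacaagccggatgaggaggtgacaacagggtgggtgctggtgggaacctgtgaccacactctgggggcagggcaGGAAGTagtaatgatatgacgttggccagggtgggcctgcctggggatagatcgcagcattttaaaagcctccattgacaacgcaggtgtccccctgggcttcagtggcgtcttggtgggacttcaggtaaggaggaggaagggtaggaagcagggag
The letters GGAAGT stood, on either strand, in 14 of the 28 windows and in 25.4% of 15290 windows of the same length for genes in the count table. By role they stood in 4 of 7 windows of B cell genes, 6 of 11 of T cell genes, 3 of 8 of NK and cytotoxic genes and 1 of 2 of shared genes. Other motifs searched on both strands were TGTGGTT, bound by RUNX factors, in 5 of 28 windows against 4.58% of all and AGGTGTGA, bound by T-box factors, in 1 of 28 against 1.14%. These motifs do not overlap in their letters, a match is a description of letters only, and windows without one say nothing about a factor.

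The other abundant B cell genes did not pass the test. Pax5, which commits cells to the B lineage, stood at 129.5, 102 and 76.7 CPM in fasted supernatant, against 118, 107 and 219 CPM in fed supernatant. Ebf1, an early B cell factor that is also known in stromal cells, stood at 337, 292 and 216 CPM in fasted supernatant, against 229, 264 and 445 CPM in fed supernatant. Both groups overlapped for both genes, and fed library C was the highest of the 6. The log2 fold changes were -0.52 ± 0.39 (adjusted p = 0.367, edgeR) for Pax5 and -0.14 ± 0.35 (adjusted p = 0.806, edgeR) for Ebf1, and that of Ebf1 was 0.22 without fed library C and 0.02 without fasted library C.

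The size of the B cell difference rested on fed library C. All 9 B cell genes other than Bank1 had their highest fed value in it and their highest fasted value in library A. Over all 13921 genes tested, 25.6% had their highest fed value in library C and 4363 genes their highest fasted value in library A. Of the 14 T cell genes, 12 also had their highest fed value in library C and 12 their highest fasted value in library A. Relative to each gene's mean over the 6 libraries, the median log2 level of these 9 B cell genes was 0.08, -0.18 and -0.60 in fasted libraries A, B and C, against -0.18, 0.06 and 0.82 in fed libraries A, B and C. Without fed library C the median fold change of the 10 B cell genes was -0.133, and leaving out any of the other 5 libraries gave -0.732 to -0.338. Bank1 followed another order, with its highest value in both feeding states in library B, as Ptprc did.

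**Figure D2:**
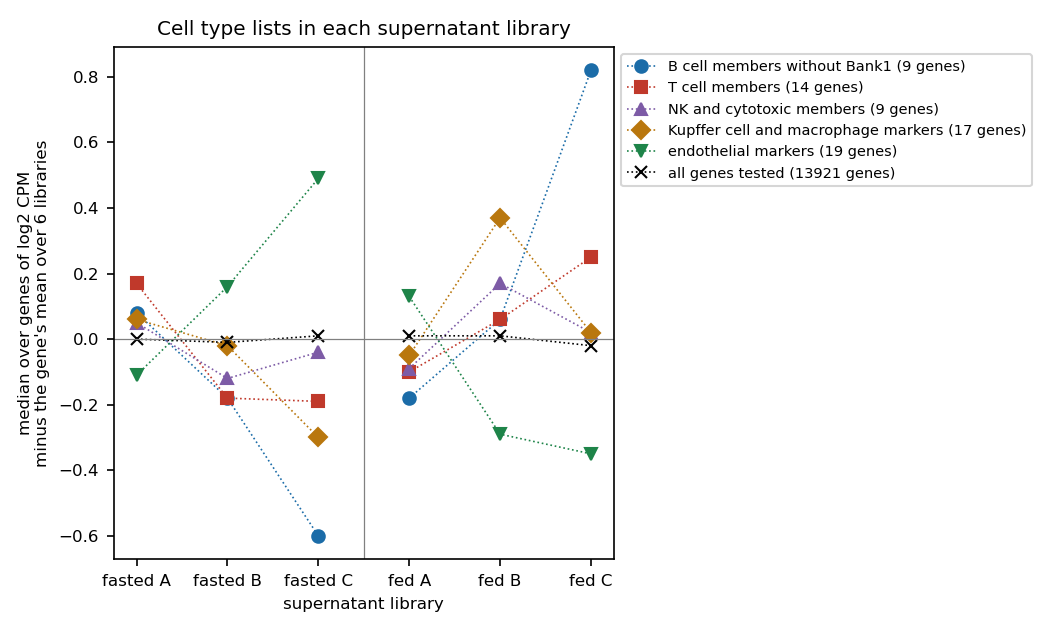
For each supernatant library, the median over a list's genes of log2 CPM minus the gene's mean over the 6 libraries, fasted libraries left and fed libraries right. The 9 B cell genes other than Bank1 reach 0.82 in fed library C and -0.60 in fasted library C, Kupffer cell markers peak at 0.37 in fed library B, endothelial markers peak at 0.49 in fasted library C, and all genes tested stay within 0.02 of 0.

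Outside the genes named by rule, 4 more had fasted libraries all below the fed ones, chosen here after their values were seen. They were the B cell genes Cd22, Cr2 and Fcer2a, which encode an inhibitory coreceptor, a complement receptor and the low-affinity IgE receptor, and the T cell gene Cd8b1, a chain of the CD8 coreceptor. Fcer2a stood at 11.3, 10.2 and 6.82 CPM in fasted supernatant, against 14.6, 13.7 and 33.4 CPM in fed supernatant. Cr2 stood at 9.35, 9.29 and 6.26 CPM in fasted supernatant, against 11.5, 15.7 and 21.6 CPM in fed supernatant. The log2 fold changes were -1.11 ± 0.47 for Fcer2a (adjusted p = 0.124, edgeR) and -0.96 ± 0.32 for Cr2 (adjusted p = 0.0728, edgeR), and both passed in DESeq2, with adjusted p = 0.0191 for Fcer2a and 0.00593 for Cr2, where DESeq2 called 13.5% of all genes tested. In all, 6 of the 36 genes had all fasted libraries below all fed ones and 1 had them above, and over all 13921 genes tested the counts were 2078 below and 1972 above. The share of the list with fasted libraries below was near that over all genes tested.

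Fold changes of T cell genes in supernatant were small. Skap1, an adaptor downstream of the T cell receptor, stood at 291, 229 and 247 CPM in fasted supernatant, against 222, 267 and 291 CPM in fed supernatant. Themis, a regulator of T cell receptor signalling in the thymus, stood at 75.4, 56.5 and 52.5 CPM in fasted supernatant, against 58.8, 67.3 and 78.5 CPM in fed supernatant. Lef1, a partner of Tcf7 in T cell development, stood at 65.5, 48.3 and 45.9 CPM in fasted supernatant, against 50.35, 57.3 and 56.6 CPM in fed supernatant. For all 3 genes the groups overlapped, with library A the highest of the fasted ones. The log2 fold changes were -0.02 ± 0.15 for Skap1, -0.14 ± 0.20 for Themis and -0.03 ± 0.17 for Lef1, and the signs of Skap1 and Lef1 turned to 0.02 and 0.01 with library totals in place of TMM. Over the 14 T cell genes fold changes ran from -0.49 for Cd8a to 0.12 for Cd4, and none passed the test (none at an unadjusted p under 0.05, and none in DESeq2).

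No NK or cytotoxic gene passed in edgeR, with SEs of 0.16 to 0.74, against 0.14 to 0.47 for B cell genes and 0.14 to 0.36 for T cell genes. Il2rb, the beta chain shared by the receptors for interleukins 2 and 15, stood at 39.3, 27.0 and 29.95 CPM in fasted supernatant, against 29.3, 29.0 and 31.2 CPM in fed supernatant. Tbx21, which encodes T-bet, stood at 12.4, 12.3 and 9.38 CPM in fasted supernatant, against 12.8, 10.7 and 15.1 CPM in fed supernatant. Neither differed beyond its spread, with log2 fold changes of 0.12 ± 0.16 for Il2rb (-0.06 without fasted library A) and -0.17 ± 0.19 for Tbx21. Klrb1c, which encodes the NK receptor NK1.1, stood at 17.6, 5.91 and 6.82 CPM in fasted supernatant, against 3.79, 4.72 and 4.14 CPM in fed supernatant. All fasted libraries were above all fed ones, with library A far above the others, and the log2 fold change was 1.28 ± 0.50 (adjusted p = 0.112, edgeR; adjusted p = 0.0147, DESeq2), or 0.60 as the lowest value on leaving out a library. GENCODE M21 places another gene of the same strand over 82.3% of Klrb1c.

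**Figure D3:**
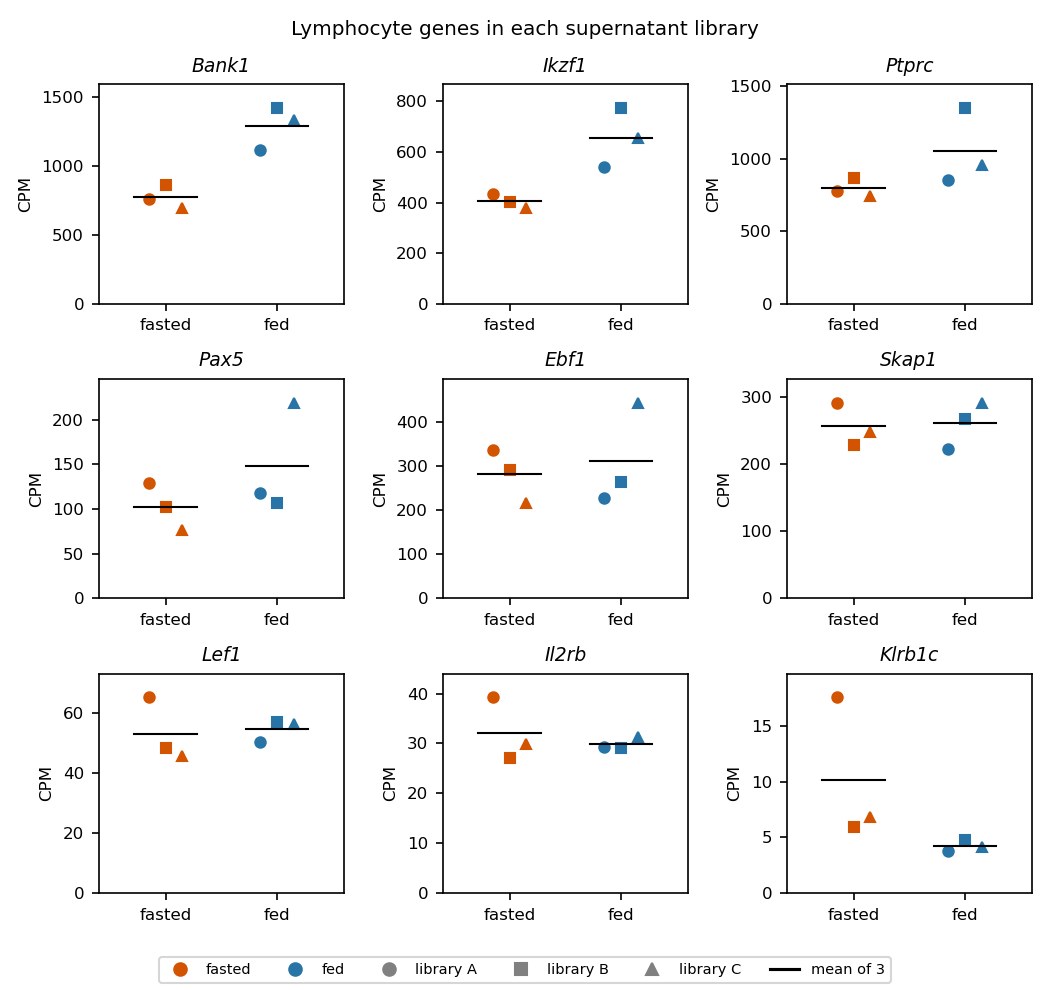
CPM of 9 genes in each supernatant library, fasted left of fed, with circles, squares and triangles for libraries A, B and C and a line at the mean of 3. Bank1 and Ikzf1 do not overlap between feeding states, Pax5 and Ebf1 are high in fed library C, and Klrb1c is high in fasted library A at 17.6 CPM.

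Among the shared genes, Ptprc stood at 779, 865 and 741 CPM in fasted supernatant, against 854, 1349 and 958 CPM in fed supernatant. Ikzf3, which encodes the Ikaros relative Aiolos, stood at 99.95, 83.7 and 81.8 CPM in fasted supernatant, against 95.1, 101 and 154 CPM in fed supernatant. The groups overlapped for both, and fed library B was highest for Ptprc and fed library C for Ikzf3. The log2 fold changes were -0.40 ± 0.21 for Ptprc (adjusted p = 0.218, edgeR) and -0.39 ± 0.24 for Ikzf3 (adjusted p = 0.28, edgeR).

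Markers of Kupffer cells, the resident macrophages of the liver, were mostly highest in library B in fed supernatant, as Bank1, Ikzf1 and Ptprc were. Of 17 such markers, 13 had their highest fed value there, against 40.3% of all genes tested. So did 17 of 19 hepatocyte markers, 8 of 8 neutrophil markers and 14 of 16 cell cycle genes. The summed level of the Kupffer cell markers ran from 4870 to 6650 CPM in fasted and from 6410 to 8860 CPM in fed supernatant. Adgre1, which encodes F4/80, stood at 769, 894 and 668 CPM in fasted supernatant, against 1125, 1626 and 1105 CPM in fed supernatant. The median log2 fold change of the Kupffer cell list was -0.264, with 1 gene called higher, Cd163, which stands in the glucocorticoid list too. Dendritic cell markers had a median of -0.327 with summed levels of 683 to 761 CPM in fasted and 825 to 913 CPM in fed supernatant, while endothelial markers had a median of 0.402 with 4910 to 6190 CPM in fasted and 4060 to 5140 CPM in fed supernatant. The part of these cell types in the lymphocyte values was not tested.

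Further lymphocyte genes from lists outside the 36 gave the following counts in supernatant, where 3.38% of all genes tested rose and 2.84% fell. Of 29 other B cell genes, 3 fell and 1 rose. Cd180, a Toll-like receptor relative, was at -1.29 ± 0.27 on the log2 scale, Swap70, a B cell signalling protein, at -0.61 ± 0.08, Plcg2, the phospholipase of B cell receptor signalling, at -0.51 ± 0.05, and Cd38, an ectoenzyme, at 0.77 ± 0.13. Of 29 other T cell genes, 3 fell and 0 rose, with Icos, a costimulatory receptor, at -0.91 ± 0.18, Rasgrp1, a Ras activator, at -0.71 ± 0.19 and Lcp2, the adaptor SLP-76, at -0.50 ± 0.09. Plcg2 and Lcp2 are also known in myeloid cells. Of 24 other NK and innate lymphocyte genes only Zbtb16, which encodes the factor PLZF of NKT cells, was called, at 1.86 ± 0.17. Zbtb16 stands in the glucocorticoid list too and was higher in fresh IP than in supernatant. The 9 plasma cell genes had a median log2 fold change of 0.384.

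Genes of traffic and survival, of the response to glucocorticoid and of the cell cycle are set against the same 3.38% of all genes that rose and 2.84% that fell. Of 20 traffic genes 1 rose, Cxcr4, the receptor that retains cells in bone marrow, at 1.44 ± 0.34 on the log2 scale (adjusted p = 0.0257, edgeR). Of 15 survival and growth receptors 2 rose, Il15ra at 0.83 ± 0.11 and Bcl2l1, which encodes BCL-XL, at 0.79 ± 0.16. Of 10 glucocorticoid-responsive genes 9 rose and 1 fell, with a median of 1.69: Ddit4 at 3.76 ± 0.80, Fkbp5 at 3.07 ± 0.25, Per1 at 2.43 ± 0.54 and Dusp1 at 2.35 ± 0.57 were the highest, and the receptor gene Nr3c1 was at -0.42 ± 0.10. Most of these genes are known in many cell types, and Cd163, which stands in this list too, is a macrophage gene. Zbtb16, counted above with the NK and innate lymphocyte genes, is also among the 9 that rose. Which cells gave these values was not tested. Of 16 cell cycle genes 4 fell, with Mcm5 at -1.68 ± 0.12, Rrm2 at -1.40 ± 0.31, Top2a at -1.26 ± 0.30 and Mki67 at -1.03 ± 0.30.

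The second question was how much of these transcripts was found in the pulled-down nuclei. All 36 genes were lower in fresh IP than in supernatant (edgeR), from -1.14 ± 0.19 for Tcf7 to -8.98 ± 0.21 for Bank1 on the log2 scale, with a median of -6.73, where 85.1% of all genes tested were called in either direction, 42% higher and 43% lower. The median was -7.70 for B cell genes, -6.10 for T cell genes, -5.01 for NK and cytotoxic genes and -8.40 for the shared genes. For comparison, 17 of 17 Kupffer cell markers were lower with a median of -8.50 and 19 of 19 endothelial markers with a median of -5.19.

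As a share of the supernatant mean of the same feeding state, the residue differed between roles. The summed CPM of B cell genes in fresh IP came to 0.276, 0.283 and 0.251% in fasted libraries A, B and C, against 0.197, 0.238 and 0.557% in fed libraries. T cell genes came to 4.14, 4.36 and 3.26% in fasted fresh IP, against 2.14, 2.37 and 3.28% in fed fresh IP. Tcf7 and Cd247 weighed heavily in that sum. In fasted fresh IP their means were 10.2 and 6.97 CPM, where the T cell sum was 17.6 to 23.6 CPM. In fed fresh IP they were 7.13 and 1.25 CPM, where the sum was 12.2 to 18.7 CPM. The median T cell gene lay the other way, at 0.933% in fasted and 1.65% in fed fresh IP. NK and cytotoxic genes came to 1.54, 2.18 and 1.57% in fasted fresh IP, against 0.993, 2.44 and 1.30% in fed fresh IP. The median NK and cytotoxic gene lay above the median T cell gene, at 3.01% in fasted and 2.39% in fed fresh IP, on few counts. Of these 3 roles B cell genes had the lowest share in every fresh IP library, and the 3 shared genes came to 0.232 to 0.447% over the 6 libraries.

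In frozen IP the shares of B cell genes were higher than in fresh IP. B cell genes came to 1.15, 0.907 and 0.952% in fasted libraries A, B and C, against 0.667, 1.77 and 1.30% in fed libraries. T cell genes came to 5.41, 5.18 and 4.02% in fasted frozen IP, against 3.22, 4.35 and 4.65% in fed frozen IP. NK and cytotoxic genes came to 2.93, 2.37 and 1.78% in fasted frozen IP, against 1.98, 2.77 and 2.76% in fed frozen IP. Every frozen B cell share was above every fresh one, and the summed T cell and NK shares overlapped between preparations. The median T cell gene lay at 1.98% in fasted and 3.22% in fed frozen IP, above its values in fresh IP. The median NK and cytotoxic gene lay at 3.42% in fasted and 2.47% in fed frozen IP. The summed level of Kupffer cell markers was 1.55 to 3.02% in frozen IP and 1.35 to 2.31% in fresh IP, and that of endothelial markers 2.84 to 8.36% in frozen IP and 0.872 to 3.81% in fresh IP.

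**Figure D4:**
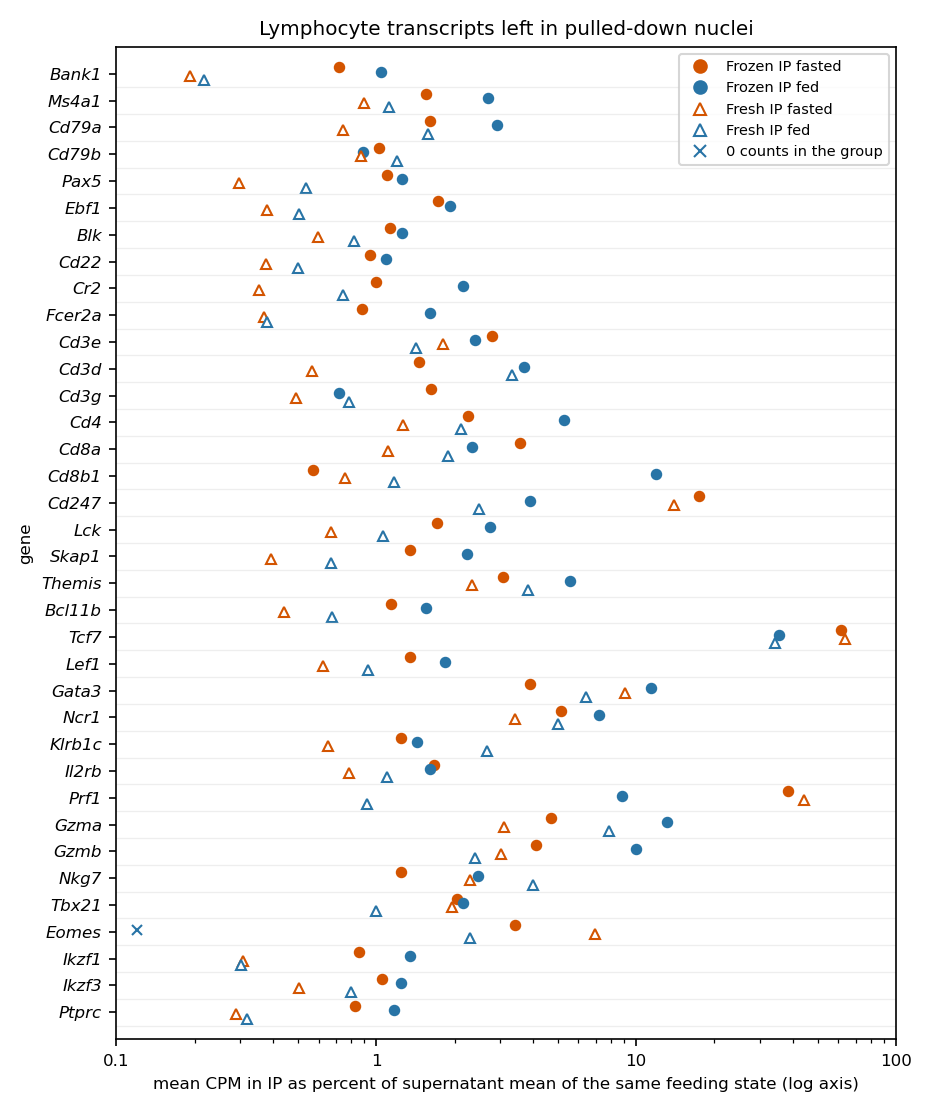
Mean CPM of each gene in an IP group as a percent of its supernatant mean in the same feeding state, on a log axis, with filled circles for frozen IP and open triangles for fresh IP. The median gene lies at 1.58% in fasted and 2.20% in fed frozen IP and at 0.75% in fasted and 1.11% in fed fresh IP. Tcf7 lies at 34.3 to 63.7%. Prf1, with few counts, lies at 44.4% in fasted fresh and 38.4% in fasted frozen IP. The cross marks Eomes, which had 0 counts in frozen IP of fed mice.

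Single genes stood apart from their lists. In fasted fresh IP 22 of the 36 genes were under 1% of supernatant, and 16 were in fed fresh IP. Tcf7, which encodes the T cell factor TCF-1, was the highest, chosen here after its values were seen. It stood at 7.95, 12.1 and 10.6 CPM in fasted fresh IP, at 4.79, 7.125 and 9.47 CPM in fed fresh IP, at 17.9, 15.5 and 14.7 CPM in fasted supernatant and at 20.9, 16.4 and 24.9 CPM in fed supernatant. Its mean share was 63.7% in fasted and 34.3% in fed fresh IP. GENCODE M21 places a long noncoding RNA of the same strand over 56.4% of Tcf7 and an antisense transcript over 21.8%. Whether counts in IP come from Tcf7 itself or from an overlapping transcript cannot be told apart from gene totals.

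Several residues rest on few reads. Eomes had 0 counts in all 3 frozen IP libraries of fed mice, 1 count in all in frozen IP of fasted mice, 2 in fresh IP of fasted mice and 1 in fresh IP of fed mice, against 32 in fasted and 35 in fed supernatant. At this depth its residue was not detectable beyond single reads, and a count of 0 allows up to 3 counts per library.

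The third question was whether the residue changed with fasting. In fresh IP 1 of the 13 genes tested passed, Cd247, where 25.1% of all genes tested were called. In frozen IP 3 of the 19 genes tested passed, Cd247 higher and Themis and Gata3 lower, where 22.6% of all genes tested were called. Both shares are below the background of these comparisons. The count in fresh IP was 2 without fed library B or without fasted library A, and that in frozen IP was 1 without fasted library A or C.

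Cd247, which encodes the zeta chain of the T cell receptor, stood at 9.93, 7.14 and 3.85 CPM in fasted fresh IP, against 1.63, 0.748 and 1.36 CPM in fed fresh IP. In frozen IP it stood at 12.2, 8.84 and 4.83 CPM in fasted mice, against 2.27, 1.89 and 1.71 CPM in fed mice. In supernatant it stood at 59.9, 44.9 and 44.2 CPM in fasted mice, against 44.75, 50.6 and 54.4 CPM in fed mice. Fasted libraries were above all fed ones in both IP preparations, with library A the highest, and overlapped with them in supernatant. The log2 fold change was 2.47 ± 0.51 in fresh IP (adjusted p = 0.00587, edgeR) and 2.14 ± 0.41 in frozen IP (adjusted p = 0.00592, edgeR), and 0.00 ± 0.16 in supernatant. The difference of the fasting response between fresh IP and supernatant was itself tested, and 2 of the 36 genes passed, both higher, where 9.54% of all genes tested were called, 3.71% higher and 5.83% lower. For Cd247 this difference was 2.4 ± 0.54 (adjusted p = 0.00763, edgeR).

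The CD3 genes of the T cell receptor complex had few counts in IP. Cd3e, tested only in frozen IP, was at 0.14 ± 0.49 there, Cd3d and Cd3g had too few counts to be tested in either IP, and no test compared them with Cd247. As a share of supernatant, Cd247 was at 14.0% in fasted and 2.49% in fed fresh IP, and Cd3e at 1.81% in fasted and 1.42% in fed fresh IP. Cd247 lies at chr1:165788681-165871153 on the plus strand of mm10 and overlaps Pou2f1, on the opposite strand, over 7.28% of its length. Pou2f1 was at -0.09 ± 0.05 in fresh IP and -0.25 ± 0.16 in frozen IP, and Creg1, 13376 bases upstream, at 0.25 ± 0.30 and 0.36 ± 0.20, none of them past the threshold.

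Prf1, which encodes perforin, was the other gene that passed, with a fitted difference between fractions of 4.80 (adjusted p = 0.0172, edgeR). Its SE of 0.70 is on the log2 CPM scale with a prior count of 2, which narrows the spread at so few counts. It stood at 0.0825, 0.446 and 0.461 CPM in fasted fresh IP, against 0.0215, 0 and 0 CPM in fed fresh IP. In supernatant it stood at 0.878, 0.515 and 0.835 CPM in fasted mice, against 0.709, 0.851 and 0.779 CPM in fed mice. Fasted fresh IP libraries were all above the fed ones, and supernatant libraries overlapped. These are 40 counts in fasted and 1 count in fed fresh IP, a ratio of 36.9 with a 95% interval of 6.25 to 1490 that covers counting error only.

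In frozen IP Prf1 had 34 counts in fasted and 6 in fed mice, a ratio of 4.31 with a 95% interval of 1.79 to 12.6. It did not pass the low-count filter in either IP comparison. Without that filter the fold change was 4.77 in fresh IP (adjusted p = 0.0143, edgeR) and 2.04 in frozen IP (adjusted p = 0.0533, edgeR). The library letter, taken here to mark the mouse though no label says so, was also fitted as a block. With it the difference between fractions was 4.73 with an adjusted p of 0.0549 (edgeR), so that the call was lost. Adamts14, whose gene lies 24397 bases upstream on the opposite strand, rose by 2.52 ± 0.30 in fresh IP (adjusted p = 0.00155, edgeR) and by 2.41 ± 0.40 in frozen IP (adjusted p = 0.00316, edgeR).

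**Figure D5:**
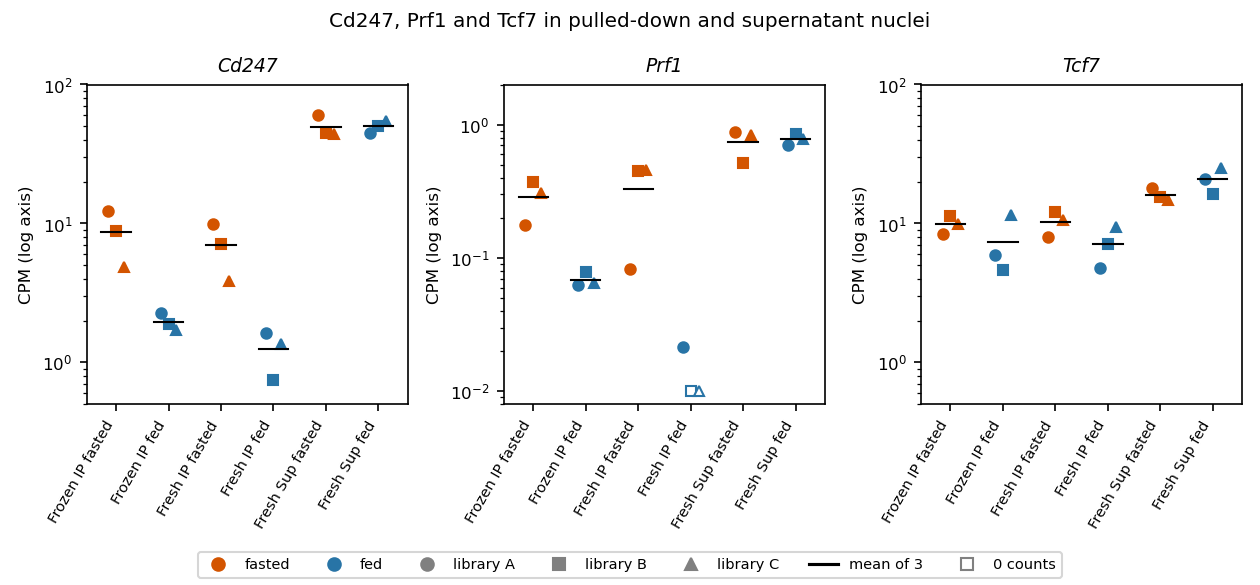
CPM of Cd247, Prf1 and Tcf7 in each library on log axes, frozen IP, fresh IP and supernatant from left to right and fasted left of fed within each, with a line at the mean of 3 and open symbols at the lower edge for 0 counts. Cd247 is higher in fasted than fed IP in both preparations and level in supernatant, Prf1 likewise with few counts, and Tcf7 in IP lies at 4.65 to 12.1 CPM, below its 14.7 to 24.9 CPM in supernatant.

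Themis stood at 2.05, 2.13 and 1.49 CPM in fasted frozen IP, against 3.18, 3.94 and 4.27 CPM in fed frozen IP. Gata3, which directs helper T cells and is also expressed by other cells, stood at 0.225, 0.297 and 0.180 CPM in fasted frozen IP, against 0.535, 1.26 and 0.5395 CPM in fed frozen IP. The groups did not overlap for either gene, and fed library B was the highest for Gata3. The log2 fold changes were -1.0 ± 0.20 for Themis (adjusted p = 0.024, edgeR) and -1.59 ± 0.42 for Gata3 (adjusted p = 0.0446, edgeR). The call of Gata3 was lost on leaving out any of the 6 libraries, with adjusted p-values of 0.0596 to 0.137, and that of Themis without fed library C (0.0757), fasted library A (0.0697) or fasted library C (0.0628). In fresh IP, where neither passed, Themis was at -0.86 ± 0.48 and Gata3 at 0.43 ± 0.61. Without fed library B Themis passed in fresh IP too, at -1.17 with an adjusted p of 0.0336.

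The authors' deposited table of their own comparisons gave adjusted p under 0.05 for 7 of the 36 genes in fresh and 11 in frozen IP, where 32.4% of all genes with an adjusted p in the authors' deposited table were called in fresh and 33.4% in frozen IP. It gave Cd247 a log2 fold change of 2.41 in fresh and 2.08 in frozen IP, Prf1 4.96 and 2.04, Themis -0.93 and -1.07, and Bank1 -1.0 and -1.36, in each case with an adjusted p under its threshold in the authors' deposited table.

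Genes of the other lymphocyte lists changed in both directions in IP, where 25.1% of all genes tested were called in fresh and 22.6% in frozen IP. In fresh IP the summed level of the other B cell genes was 35.3 to 53.3% of supernatant. That of the other NK and innate genes was 217 to 318%. Which cells gave these counts was not tested, so the changes below cannot be assigned to a cell type. Zbtb16 rose by 3.03 ± 0.32 in fresh and 3.19 ± 0.38 in frozen IP, and Itga2, an integrin chain of NK cells and platelets, by 2.86 ± 0.44 in fresh IP, while in frozen IP Itga2 was at 1.04 ± 0.52 (adjusted p = 0.163, edgeR). Zbtb16 was higher in fresh IP than in supernatant, by 2.43 ± 0.18, and Itga2 was lower, at -4.38 ± 0.23. Blnk, the adaptor of B cell receptor signalling, was at -1.51 ± 0.35 in fresh and -1.32 ± 0.18 in frozen IP, and Dock8, a regulator of lymphocyte shape, at -1.22 ± 0.25 and -1.20 ± 0.25. S1pr1, the receptor for exit into lymph, which endothelium also expresses, was at -1.15 ± 0.25 in fresh and -1.24 ± 0.25 in frozen IP. All of these but Itga2 in frozen IP passed an adjusted p of 0.05 in edgeR. Between frozen and fresh IP, Blnk was at 0.25 ± 0.20, Dock8 at 0.15 ± 0.18 and S1pr1 at -0.05 ± 0.18, none of them called.

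The fourth question was whether the residue differed between frozen and fresh liver. It did for 7 of the 22 genes tested, all higher in frozen IP, where 5.16% of all genes tested were called in either direction and 4.72% higher. These were Bank1 at 2.09 ± 0.36, Ebf1 at 2.06 ± 0.29, Ikzf1 at 1.83 ± 0.32, Skap1 at 1.76 ± 0.22, Ptprc at 1.70 ± 0.24, Pax5 at 1.58 ± 0.34 and Lck, the kinase that starts T cell receptor signalling, at 1.33 ± 0.19 on the log2 scale, with adjusted p-values of 0.00158 to 0.022 (edgeR). The median over the 22 genes was 1.11, against -0.0235 over all genes tested. Of the 22, Blk, Cd22, Cd3e, Lck, Bcl11b and Tbx21 passed the low-count filter in the frozen IP comparison and not in the fresh IP one. Their direction here was favoured by that filter and adds no support. With the library letter as a block 12 of the 22 passed, where 16.5% of all genes tested were called with that block.

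Bank1 stood at 6.31, 4.86 and 5.39 CPM in fasted and at 6.04, 23.9 and 10.5 CPM in fed frozen IP, against 1.595, 1.34 and 1.48 CPM in fasted and 1.91, 1.98 and 4.52 CPM in fed fresh IP. Ptprc stood at 6.86, 6.71 and 6.11 CPM in fasted and at 8.18, 19.9 and 8.93 CPM in fed frozen IP, against 2.56, 2.60 and 1.74 CPM in fasted and 2.56, 3.61 and 3.89 CPM in fed fresh IP. Every frozen library was above every fresh one for both genes. Frozen fed library B, the one with the lowest total of 13828945 counts, was the highest. In frozen IP 16 of 17 Kupffer cell markers also had their highest fed value in library B, against 37.7% of all genes tested in supernatant. Without frozen fed library B 7 genes passed, and without fresh fed library C 11 passed. The call of Pax5 was lost without fresh fed library A or B, any fresh fasted library, frozen fed library C or frozen fasted library A, with adjusted p-values of 0.0521 to 0.0663, and that of Lck without fresh fed library A (0.0576) or frozen fasted library A (0.0543).

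Some genes with a larger residue in fresh IP, chosen here after their values were seen, were not called between preparations. Cd247 was at 0.48 ± 0.33, Tcf7 at 0.03 ± 0.26, Gata3 at -0.18 ± 0.37 and Themis at 0.47 ± 0.26. Prf1 was at 1.15 ± 0.35 on few counts. With the library letter as a block Cd247 passed, at 0.47 with an adjusted p of 0.0212 (edgeR). Genes of other cell types were higher in frozen IP too, with 8 of 17 Kupffer cell markers called (median 1.69) and 16 of 19 endothelial markers (median 1.26), while 20 hepatocyte markers had a median of -0.0728. Over all genes tested 4.72% were called higher. Of the other lymphocyte genes, 11 of 21 B cell genes and 10 of 21 T cell genes were called higher. Among them were Ly86 at 2.58 ± 0.27, Lcp2 at 2.39 ± 0.24 and Fyb at 2.15 ± 0.36. Only 14 genes of each of these lists, these 3 genes included, passed the low-count filter in the fresh IP comparison. For the rest, which passed it in the frozen IP comparison alone, the direction was favoured by that filter and adds no support. The 9 other NK and innate genes tested had a median of 0.102.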

How the data were processed

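Nuclear RNA was column-purified with DNase digestion and made into stranded libraries from 50 to 100 ng without poly-A selection, then sequenced as 50 bp pairs, per the labels' protocols. STAR 2.4.2a, DESeq2 1.24.0 and mm10 were used, per the submitters' processing notes. How reads were counted, and with which strand setting, was not given in the sources used here. Reads of a gene and of an antisense partner can therefore not be told apart. The authors deposited raw counts per gene, whose lengths equal end minus start in all 20105 genes, so introns are counted. A second deposited table holds the authors' log2 fold changes (fasted over fed, IP) and their adjusted p-values. A further 6 count columns match no sample and were not used. The letters A, B and C of the columns are in no label, and columns were mapped to groups alone. A number in the sample titles, taken here as the mouse, recurs in all 3 libraries of each of 6 mice, but no label ties it to a letter.

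Each comparison was fitted with edgeR 4.0.16 in R 4.3.3 (glmQLFit, glmQLFTest) on the counts of its own groups, with TMM, filterByExpr by group and Benjamini-Hochberg adjustment over all genes at 0.05, and tested on simulated data. Errors are SEs of differences between group means on the log2 CPM scale (prior count 2). Fold changes come from the edgeR fit, so for genes with few counts these SEs can be too narrow. CPM was scaled by TMM over all 18 libraries, and shares of supernatant carry no test. Alternatives were DESeq2 1.42.0, other scalings, no filter, all 6 groups in 1 fit, and leaving out each library. Between fractions or preparations, the library letter was also fitted as a replicate block. The letters were taken to pair libraries because deviations from group means correlated for the same letter. These correlations were 0.555 to 0.902 for fresh with frozen IP and 0.152 to 0.478 for IP with supernatant. For different letters they were -0.586 to 0.0101. Deviations from a group mean cancel within the group, so the values for different letters add no separate support. Promoters are from RefSeq (GRCm38.p6) and overlapping transcripts from GENCODE M21. Intervals on counts are exact and cover counting error only.

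The genes and lists were chosen with earlier results of these data known. Named were all genes past a threshold, the 3 of highest supernatant CPM per role, genes with 0 counts in all libraries of a group, and, of the other lists, up to 4 called genes per direction in supernatant and 2 elsewhere.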

Additional observations from a re-analysis of the deposited data

Results flagged for a closer look

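The fasting response differed between fresh IP and supernatant, by the test of that difference in edgeR, for 2 of the 36 genes. For Cd247 the response in fresh IP minus that in supernatant was 2.4 on the log2 scale (adjusted p = 0.00763, edgeR). All 3 fasted fresh IP libraries were above all 3 fed ones. With the library letter as a block the difference was 2.34 (adjusted p = 0.00971, edgeR). For Prf1 the difference was 4.80 (adjusted p = 0.0172, edgeR), on 40 counts in fasted and 1 count in fed fresh IP. The call was lost with the library letter as a block (4.73, adjusted p = 0.0549, edgeR). The cause of either was not tested.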

How the results depend on the processing

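In supernatant, DESeq2 called 5 of the 36 genes for fasting (Klrb1c higher at 1.27, and Bank1, Cr2, Fcer2a and Ikzf1 lower), 1 fit of all 6 groups called 0 in edgeR (4 at an unadjusted p under 0.05; 4.01% of all genes called), and leaving out single libraries gave 0 to 3 (4 to 9 at an unadjusted p under 0.05), with 0 without fed library B or C or fasted library A or C. Over all genes the count was 866, with 1881 (13.5%) in DESeq2 and 197 to 624 on leaving out a library. The median over the 36 genes ran from -0.346 to -0.0425 on leaving out a library. Small differences turned sign: Skap1 to 0.02 and Lef1 to 0.01 with library totals and again with scaling on genes lower in IP, and on leaving out libraries Skap1 ran from -0.13 to 0.08, Lef1 from -0.21 to 0.07, Ebf1 from -0.33 to 0.22, Il2rb from -0.06 to 0.22 and the NK and cytotoxic median from -0.137 to 0.14. For fasting in fresh IP, no filter gave 2 genes (18.7% of all genes called), 1 fit of all groups 3 (29.1%), and leaving out libraries 1 to 2 (1429 to 2643 over all genes, against 3145). For frozen IP, DESeq2 gave 7 (28.2% of all genes called), 1 fit of all groups 10 (30.2%), and leaving out libraries 1 to 4 (1168 to 2271 over all genes, against 2918). For frozen minus fresh IP, the replicate block gave 12 of 22 genes (2168 or 16.5% over all genes, 1238 higher and 930 lower), and leaving out libraries 5 to 11 (409 to 711 over all genes, against 679). For the difference of responses, the replicate block gave 1 gene (10.2% of all genes called), DESeq2 2326 over all genes, and leaving out libraries 771 to 1485, against 1367. The block changed no call of the 36 genes between fresh IP and supernatant. No paired analysis was possible for fasting because fed and fasted libraries come from different mice. The causes were not tested. Library totals moved the median of all genes between fresh IP and supernatant to -0.336, and no other scaling moved one by over 0.1. With them the residual share in fasted mice was 0.206% for B cell, 2.99% for T cell and 1.35% for NK and cytotoxic genes in fresh IP. With 3 libraries a group and few counts in IP, 23 of the 36 genes could not be tested there for fasting in fresh liver.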

Other observations

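Cd8b1, chosen here after its values were seen, had 1 count in frozen IP of fasted mice and 13 in frozen IP of fed mice, a ratio of 17.1 (fed over fasted) with a 95% interval of 2.56 to 726 that covers counting error only. Of the fed libraries, B stood at 0.552 CPM, and A and C at 0.063 and 0.0863 CPM.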
